A study of Mus musculus with 2 samples.

Results

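The genes described here encode SR proteins and heterogeneous nuclear ribonucleoproteins (hnRNPs), the RNA-binding proteins that steer pre-mRNA splicing. They are all genes whose symbols begin with Srsf or Hnrnp, pseudogenes left out, together with the mRNA export adaptor Alyref and the splicing modulator Arglu1. Of 33 such genes among the 32285 in the tables, 32 reached at least 5 counts per 1000000 UMIs (CPM, where a UMI marks 1 captured mRNA molecule) in either library and are the members described below. The exception was Srsf12, with 15 and 13 molecules counted (0.423 and 0.364 CPM). The member nearest to the minimum was Srsf4, at 30.03 and 36.9 CPM. A total of 9028 genes passed the same minimum and serve as the background.

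SR proteins carry RNA recognition motifs and a tail rich in arginine and serine, and they mostly promote the use of the exons they bind. hnRNPs coat nascent transcripts, often oppose SR proteins at splice sites, and also act in mRNA export, decay and translation. In T cells, activation is known to switch the exon use of many transcripts, among them Ptprc, which encodes CD45 and is a target of Hnrnpll.

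Regulatory T cells (Tregs), the Foxp3-expressing CD4 T cells that restrain immune responses, were sorted from mouse spleen and profiled with 10x 3′ single-cell RNA sequencing. The study asked what losing CD25 does to them, a subunit of the receptor for interleukin-2 that Il2ra encodes. The CD25WT library came from CD25WT/WT mice and the CD25KO library from CD25FL/FL mice, and both carried tdTomato+/+ and Foxp3eGFPCretERT2+/+, so that the Foxp3 locus drove the tamoxifen-dependent Cre. Both received tamoxifen at 2 mg/kg intraperitoneally for 5 days, both were harvested at day 10, and each library pooled 2 spleens. Live CD4 cells positive for GFP and tdTomato were sorted, and the CD25KO cells were additionally gated on low CD25. Because each group is a single library, nothing could be tested against replicate error, and intervals below are 95% intervals that cover counting error alone.

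After filtering, 6110 CD25WT and 6952 CD25KO cells remained, with 35436738 and 35726778 unique molecular identifiers (UMIs) and medians of 5229 and 4150 UMIs per cell. Il2ra, the targeted gene, stood at 125 and 32.4 CPM (CD25WT first here and in every pair of values below), and the labels do not say which exons were deleted, so 3′ counts may miss a deletion. Foxp3 stood at 34.1 and 21.6 CPM, with a Foxp3 UMI in 971 and 690 cells, while the T cell gene Cd3e stood at 657 and 891 CPM and Cd4 at 118 and 170 CPM. Ribosomal protein genes took 40.5% of CD25WT and 32.01% of CD25KO UMIs, and the median log2 ratio of all genes tested was 0.22, written throughout as CD25KO over CD25WT CPM. A total that leaves out ribosomal protein and mitochondrial genes put that median at 0.02, so members are also read against the all-gene median. The libraries shared 107 barcode sequences, 26 of them among kept cells.

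Most of the 32 genes differed little between the libraries, and 6 stood well above the rest. Hnrnpd, Alyref, Arglu1, Srsf9, Hnrnpll and Hnrnpa0 had CPM values in CD25KO at least 1.5-fold those in CD25WT, and no member was 1.5-fold lower. That is 6 of 32, where 13.3% of all genes tested passed the same fold upward, and 0 of 32 where 2.22% passed it downward. By symbol, 1 of the 10 Srsf and 3 of the 20 Hnrnp genes passed upward. Alyref and Arglu1 also passed, but they were added to the members by name, with earlier results of these data known. The 6 of 32 is therefore not read as a trait of the Srsf and Hnrnp genes. The median log2 ratio of the members was 0.19, beside 0.22 for all genes. The 32 genes summed to 5626 and 6505 CPM.

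The sequence just before the transcript start is shown for those of the 6 genes with an entry in the RefSeq promoter table (GRCm38.p6), because the libraries differed most in these genes and the bases show how rich in G and C they are. Each run is the 250 bases before the start, read 5′ to 3′ on the gene's strand. Capitals mark matches on either strand to the motifs searched, which were TTCNNNGAA (the STAT-type site), CACGTG (the E-box that Myc can bind), CCGGAAG (ETS-type), TGACGTCA (CRE) and GGGCGG (the GC box). Hnrnpd lies at chr5:99978939-99979188 (minus strand), Alyref at chr11:120598366-120598615 (minus), Srsf9 at chr5:115326927-115327176 (plus) and Hnrnpa0 at chr13:58128557-58128806 (minus).
Hnrnpd: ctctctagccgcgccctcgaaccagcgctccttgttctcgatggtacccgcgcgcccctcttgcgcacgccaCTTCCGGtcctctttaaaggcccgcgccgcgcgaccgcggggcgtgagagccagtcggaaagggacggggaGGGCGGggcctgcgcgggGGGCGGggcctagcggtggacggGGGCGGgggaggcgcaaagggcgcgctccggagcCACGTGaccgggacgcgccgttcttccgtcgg
Alyref: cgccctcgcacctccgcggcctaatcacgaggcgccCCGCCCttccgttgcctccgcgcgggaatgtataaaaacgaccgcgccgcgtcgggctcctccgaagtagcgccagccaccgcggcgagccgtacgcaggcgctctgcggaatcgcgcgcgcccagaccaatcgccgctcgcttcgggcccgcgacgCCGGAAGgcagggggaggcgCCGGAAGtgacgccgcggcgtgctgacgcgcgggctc
Srsf9: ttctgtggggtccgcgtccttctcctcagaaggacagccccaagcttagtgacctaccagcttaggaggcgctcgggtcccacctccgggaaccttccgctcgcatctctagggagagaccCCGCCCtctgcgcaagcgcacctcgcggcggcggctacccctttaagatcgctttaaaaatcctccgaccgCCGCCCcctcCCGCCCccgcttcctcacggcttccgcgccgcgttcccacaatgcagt
Hnrnpa0: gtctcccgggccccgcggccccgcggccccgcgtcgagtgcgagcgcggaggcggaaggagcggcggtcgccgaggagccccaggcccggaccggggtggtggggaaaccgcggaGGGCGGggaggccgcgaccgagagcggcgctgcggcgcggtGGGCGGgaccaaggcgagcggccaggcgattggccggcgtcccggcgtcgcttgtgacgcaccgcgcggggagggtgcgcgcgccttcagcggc

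A promoter was found for 29 of the 32 members. GGGCGG was present in 23 of the 29, against 32.9% of 27025 promoters of the same length. CCGGAAG was present in 7 (Alyref, Hnrnpd, Hnrnpf, Srsf11, Srsf4, Srsf5 and Srsf7), against 7.05% of all promoters. CACGTG was present in 2 (Hnrnpa3 and Hnrnpd), against 6.05% of all. TTCNNNGAA was present in 2 (Hnrnpa2b1 and Hnrnph1), against 7.18% of all, and TGACGTCA in 0, against 1.62% of all. Of the runs shown, Hnrnpd holds 1 CACGTG, 1 CCGGAAG and 3 GGGCGG, Alyref 2 CCGGAAG and 1 GGGCGG, Srsf9 3 GGGCGG and Hnrnpa0 2 GGGCGG. The median GC content of these promoters was 65.2% for the members and 52.0% for all 27025 promoters. That set, also used for the motif shares, is not limited to the genes tested, whereas the members all passed the CPM minimum. These matches describe letters only.

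Hnrnpd (also called AUF1, a protein that binds AU-rich elements and takes part in mRNA decay) showed the widest gap. It had 1989 UMIs (56.1 CPM) in CD25WT against 6034 UMIs (169 CPM) in CD25KO, giving a log2 ratio of 1.59 (interval 1.52 to 1.66) or 3.01-fold. The gene lies at chr5:99955935-99978938 on the minus strand, in the GENCODE annotation of the mm10 build. An antisense gene, Gm17092, overlaps it, and reads of the pair cannot be told apart where strand was not used in counting. Its neighbour and close relative Hnrnpdl, on the same chromosome, stood at 104 and 113 CPM, with a log2 ratio of 0.13 (0.06 to 0.19).

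Alyref, which couples splicing to export as part of the TREX complex, followed. It had 1332 UMIs (37.6 CPM) in CD25WT against 3638 (102 CPM) in CD25KO, giving a log2 ratio of 1.44 (1.35 to 1.53) or 2.71-fold, from chr11:120592121-120598365. Arglu1, an arginine and glutamate-rich protein known as a transcriptional coactivator and a modulator of splicing, had 3524 UMIs (99.4 CPM) and 6950 UMIs (195 CPM). Its log2 ratio was 0.97 (0.91 to 1.03), 1.96-fold, from chr8:8665075-8690521. Neither gene overlaps another counted gene or shares long stretches with a copy elsewhere.

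Among the 10 SR proteins only Srsf9 passed 1.5-fold. Srsf9 (chr5:115327177-115333080), a short SR protein with a brief arginine-serine tail, had 1903 UMIs (53.7 CPM) in CD25WT against 3504 (98.1 CPM) in CD25KO, giving a log2 ratio of 0.87 (0.79 to 0.95). The next was Srsf1, the founding SR protein, at 80.1 and 102 CPM and a log2 ratio of 0.35 (0.28 to 0.42). Srsf3, the smallest SR protein and a partner of mRNA export, stood at 349 and 411 CPM (log2 ratio 0.24). Srsf4 stood at 30.03 and 36.9 CPM (0.30), and Srsf2, which is also found in nuclear speckles, at 179 and 204 CPM (0.18). The median over the 10 SR proteins was 0.16.

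The other SR proteins sat below the all-gene median of 0.22. Srsf7, which like Srsf3 links splicing to export, stood at 328 and 358 CPM (log2 ratio 0.13). Srsf11 stood at 183 and 200 CPM (0.13). Srsf10, known as a splicing repressor when dephosphorylated, stood at 105 and 113 CPM (0.10), and Srsf6 at 91.9 and 97.8 CPM (0.09). Srsf5 stood at 149 and 146 CPM, a log2 ratio of -0.02 whose interval, -0.08 to 0.03, spans 0.

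Of the 20 hnRNP genes, Hnrnpd, Hnrnpll and Hnrnpa0 passed 1.5-fold. Hnrnpll (chr17:80029487-80062334), known for repressing variable exons of Ptprc in activated lymphocytes, had 1395 UMIs (39.4 CPM) and 2184 UMIs (61.1 CPM), a log2 ratio of 0.63 (0.54 to 0.73). Hnrnpa0 (chr13:58125879-58128556), a single-exon relative of the A/B group that binds AU-rich mRNAs, had 2389 UMIs (67.4 CPM) and 3714 UMIs (104 CPM), a log2 ratio of 0.62 (0.55 to 0.70). Both intervals reach below 1.5-fold, so counting error alone leaves their side of that line unsettled. The median over the 20 hnRNP genes was 0.18.

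The classical core hnRNPs moved little. Hnrnpa1, a widely studied splicing silencer, stood at 249 and 279 CPM (log2 ratio 0.16), Hnrnpa2b1 at 571 and 644 CPM (0.17) and Hnrnpa3 at 451 and 467 CPM (0.05). Hnrnpc, which binds uridine tracts, stood at 205 and 216 CPM (0.07). Hnrnpk, which binds C-rich RNA, stood at 319 and 345 CPM (0.11), Hnrnpl, which binds CA repeats, at 108 and 118 CPM (0.12), and Hnrnpab at 150 and 174 CPM (0.21). All 7 were below the all-gene median.

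The G-run binders of the F and H group were on both sides of it. Hnrnpf stood at 653 and 619 CPM, a log2 ratio of -0.08 (-0.10 to -0.05), the lowest of the 32. Hnrnph1 stood at 84.6 and 96.6 CPM (0.19), Hnrnph2 at 52.8 and 52.3 CPM (-0.01) and Hnrnph3 at 38.1 and 47.5 CPM (0.32). Only Hnrnph3 of these was above the all-gene median.

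The remaining hnRNPs were Hnrnpm at 208 and 257 CPM (log2 ratio 0.30), Hnrnpr at 130 and 160 CPM (0.30) and the nuclear scaffold protein Hnrnpu at 297 and 330 CPM (0.15). The Hnrnpu relatives Hnrnpul1, at 75.1 and 93.7 CPM (0.32), and Hnrnpul2, at 80.0 and 94.4 CPM (0.24), completed the set. Across the 32 genes, 29 had a ratio above 0, where 7370 of the 9028 genes tested did. Of the 32, only 14 were above 0 with TMM scaling and 15 when ribosomal protein and mitochondrial genes were left out of the total. The all-gene medians under those settings were -0.01 and 0.02. Against the all-gene median of 0.22 without rescaling, 14 of the 32 lay above it, 10 of these with their interval above it, and 15 had their interval below it. Shares of all genes with an interval beyond that median are not given here, so these counts are not read as particular to the members. The ratio of each gene is plotted below.

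**Figure D1:**
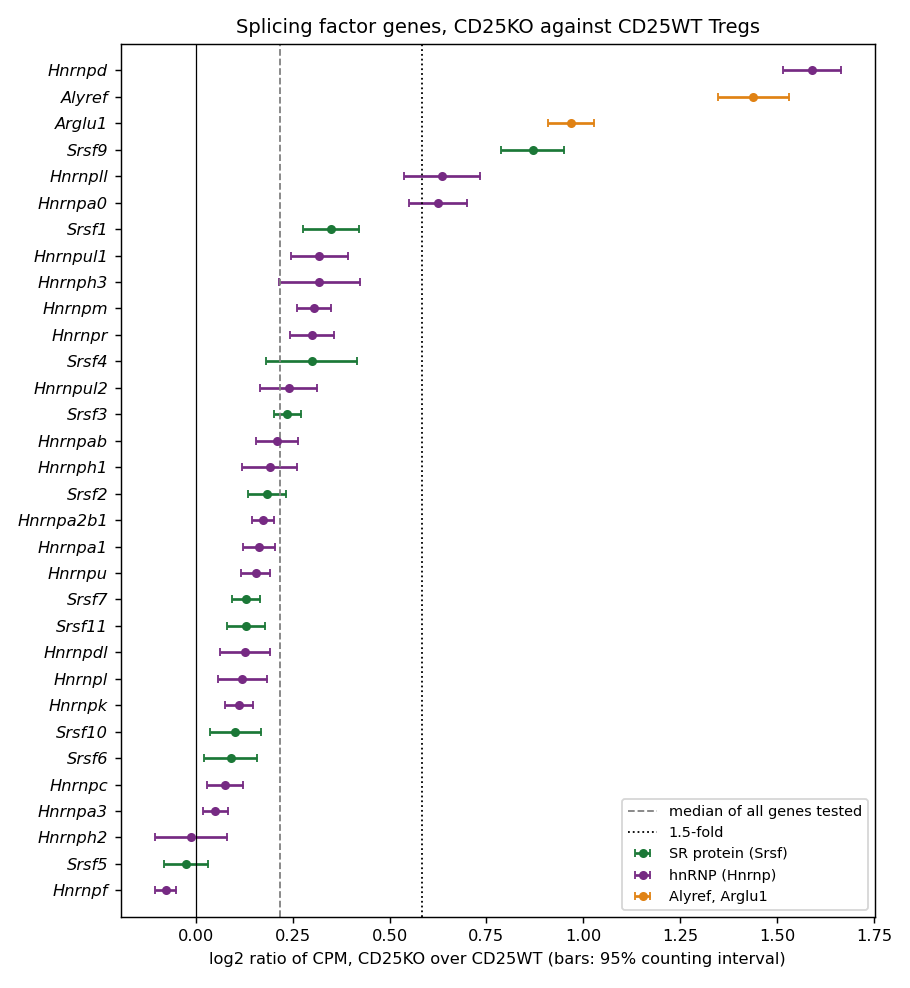
The log2 ratio of CPM (x axis, CD25KO over CD25WT) for each of the 32 genes (y axis), with bars for the 95% counting interval. Hnrnpd, Alyref, Arglu1 and Srsf9 lie between 0.87 and 1.59, Hnrnpll and Hnrnpa0 lie just past the dotted 1.5-fold line, and the other 26 genes lie between -0.08 and 0.35 around the dashed all-gene median of 0.22.

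Of the 33 genes considered, 10 (Hnrnpa1, Hnrnpa3, Hnrnpc, Hnrnpf, Hnrnph2, Hnrnpk, Hnrnpr, Srsf10, Srsf3 and Srsf5) share at least 200 stretches of 50 bases with annotated copies elsewhere in the genome, none of which is in the deposited gene table. Their counts are uncertain to that extent. Another gene overlaps 10 of the 33 on the opposite strand, and March2 overlaps Hnrnpm on the same strand.

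Other genes of the splicing machinery were read by list, beside all genes tested, of which 13.3% passed 1.5-fold upward and 2.22% downward. The 6 genes above were picked by their ratios, so the lists are not compared with them. Of 23 SR-related splicing regulators, 0 passed 1.5-fold in either direction (median log2 ratio 0.19), with Luc7l3 at 117 and 157 CPM (0.43) and Rsrc1 at 46.1 and 62.0 CPM (0.43) the farthest from 0. The 11 kinases and phosphatases that set the phosphorylation of SR proteins likewise counted 0 (median 0.19), with the phosphatase subunit Ppp1ca at 324 and 403 CPM (0.32) and the kinase Clk1 at 197 and 239 CPM (0.28). Of 24 hnRNP proteins under other names, 23 were measured, that is reached the CPM minimum, and 0 passed (median 0.18). The cold-inducible Rbm3, at 472 and 695 CPM (0.56), and the poly(C)-binding Pcbp1, at 117 and 170 CPM (0.54), came nearest.

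The 39 genes of the spliceosome core counted 0 past 1.5-fold (median 0.17), with Prpf6 at 38.5 and 51.8 CPM (0.43) and Sf3b6 at 176 and 233 CPM (0.41). Of 18 other genes of mRNA export, the pathway of Alyref, 0 passed (median 0.16), with Thoc6 at 11.0 and 14.3 CPM (0.38) and Thoc7 at 139 and 169 CPM (0.28). Of 11 genes of nonsense-mediated decay, the route by which many SR protein transcripts limit their own level, 0 passed (median 0.19), with Smg6 at 36.3 and 50.1 CPM (0.47) and Upf3b at 53.5 and 73.7 CPM (0.46). These lists all had medians below the 0.22 of all genes.

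Several measures of RNA quality and of other cells differed between the libraries beside these ratios. The 6 nuclear-retained RNAs, among them Malat1, summed to 22377 and 23023 CPM, with Neat1 at 51.7 and 84.6 CPM (log2 ratio 0.71) and AY036118 at 152 and 192 CPM (0.34). Of 16 dissociation stress genes, 12 were measured, 2 passed 1.5-fold upward and 1 downward, with Jun at 44.8 and 14.1 CPM (-1.67) and Egr1 at 42.2 and 73.5 CPM (0.80). Of 7 genes of apoptosis and low-quality cells, 2 passed upward and 1 downward, with Cdkn1a at 1.66 and 6.10 CPM and Pmaip1 at 4.29 and 11.5 CPM. Of 12 B cell markers, 8 were measured and 3 passed upward (Ighm, Ighd and Cd74), with 381 and 639 CPM summed over the 12 and Ms4a1 at 3.27 and 2.07 CPM.

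Of 8 erythroid markers, 7 were measured and 5 passed downward, with 4321 and 2379 CPM summed over the 8. Of 10 myeloid markers, summing to 133 and 162 CPM, only Cst3 was measured, at 119 and 149 CPM, and S100a8 had 0 and 2 UMIs. Of 9 CD8 T cell and NK markers, 3 were measured, 1 passed upward and 1 downward, and the 9 summed to 52.7 and 162 CPM, with Nkg7 at 32.2 and 139 CPM. Leaving out the B-like and erythroid-like clusters, described next, left Alyref at 1.44, Arglu1 at 0.96 and Srsf9 at 0.88, and 6 members past 1.5-fold. The part of the RNA quality measures in the ratios was not tested.

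To see the genes by Treg state, the cells of both libraries were clustered together, with the 32 genes left out of the features. Clusters matching fixed markers were central-like (resting) Tregs, with 2360 CD25WT and 376 CD25KO cells, and effector-like Tregs, with 143 and 1473. Follicular regulatory-like Tregs had 379 and 1151 cells, recently stimulated-like Tregs 464 and 860, and interferon response-like Tregs 364 and 327. Cycling-like cells numbered 94 and 236, below the minimum of 100 cells in each library set for ratios. Clusters that matched no marker list are called by some of their 10 leading genes: Naip5/Capn3 (661 and 1247 cells), Prg4/Il18r1 (741 and 947) and Lrrc32/Myc (756 and 238). In the last of these the immunoglobulin genes Jchain and Igkc ranked above Lrrc32 and Myc. A further unnamed cluster led by Tmem176b and Tmem176a had 63 and 17 cells and was too small for ratios. The central-like share of T cells was 39.2% and 5.47%, and the effector-like share 2.37% and 21.4%. These names are rebuilt from markers and the states are not replicates, since all 8 states compared come from the same 2 libraries.

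Weighting each cluster by its CD25WT share in both libraries brought the medians of the members and of all genes to 0.07 each. Of the 32 genes 4 remained at least 1.5-fold higher, where 4.12% of all genes did. Hnrnpd was at 1.41 and Srsf9 at 0.62, and Alyref was at 1.14 and Arglu1 at 0.86, both added to the members by name. Hnrnpa0 went to 0.54, just under the 1.5-fold line, and Hnrnpll to 0.12. Of the 6 genes, Hnrnpll was the one whose ratio came near the all-gene median at these cluster weights.

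Hnrnpd was higher in CD25KO in each of the 8 states. In central-like cells it stood at 44.0 and 129 CPM (log2 ratio 1.55, 1.31 to 1.78), and in effector-like cells, from 49 and 1002 UMIs, at 72.6 and 146 CPM (1.01, 0.60 to 1.46). The ratio ran from this value to 1.79 (1.44 to 2.14) in the Lrrc32/Myc cluster, at 36.4 and 126 CPM. In the CD25WT library the level over the 8 states ran from 36.4 to 90.4 CPM, and in CD25KO from 121 to 210 CPM. The highest of the 8 in both libraries was the recently stimulated-like state.

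Alyref showed the same separation, from 25.2 to 57.4 CPM in CD25WT and from 61.4 to 118 CPM in CD25KO. Its ratio ran from 0.85 (0.50 to 1.22) in follicular regulatory-like cells up to 1.75 (1.06 to 2.54) among effector-like ones, where CD25WT had only 17 UMIs. In central-like cells it stood at 30.6 and 71.2 CPM (1.22, 0.91 to 1.52). Arglu1 varied least of the 3, from 89.7 to 117 CPM in CD25WT and from 149 to 222 CPM in CD25KO. Its ratio ran from 0.67 in the Prg4/Il18r1 cluster to 1.05 in interferon response-like cells.

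Srsf9 was also above 0 in the 8 states, with intervals that excluded 0, from 0.44 (0.24 to 0.64) in recently stimulated-like cells up to 1.29 (0.75 to 1.89) among effector-like ones. Its levels overlapped between libraries, at 41.5 to 90.4 CPM and 62.7 to 123 CPM. Hnrnpa0 ran from 0.17 in effector-like cells, with an interval spanning 0, to 0.71 in recently stimulated-like cells. Hnrnpll ran from -0.27 (-0.58 to 0.04) in follicular regulatory-like cells to 0.46 (0.23 to 0.68) in recently stimulated-like cells, and only in the latter did the interval exclude 0. The plot of ratios within states shows these 6 genes.

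**Figure D2:**
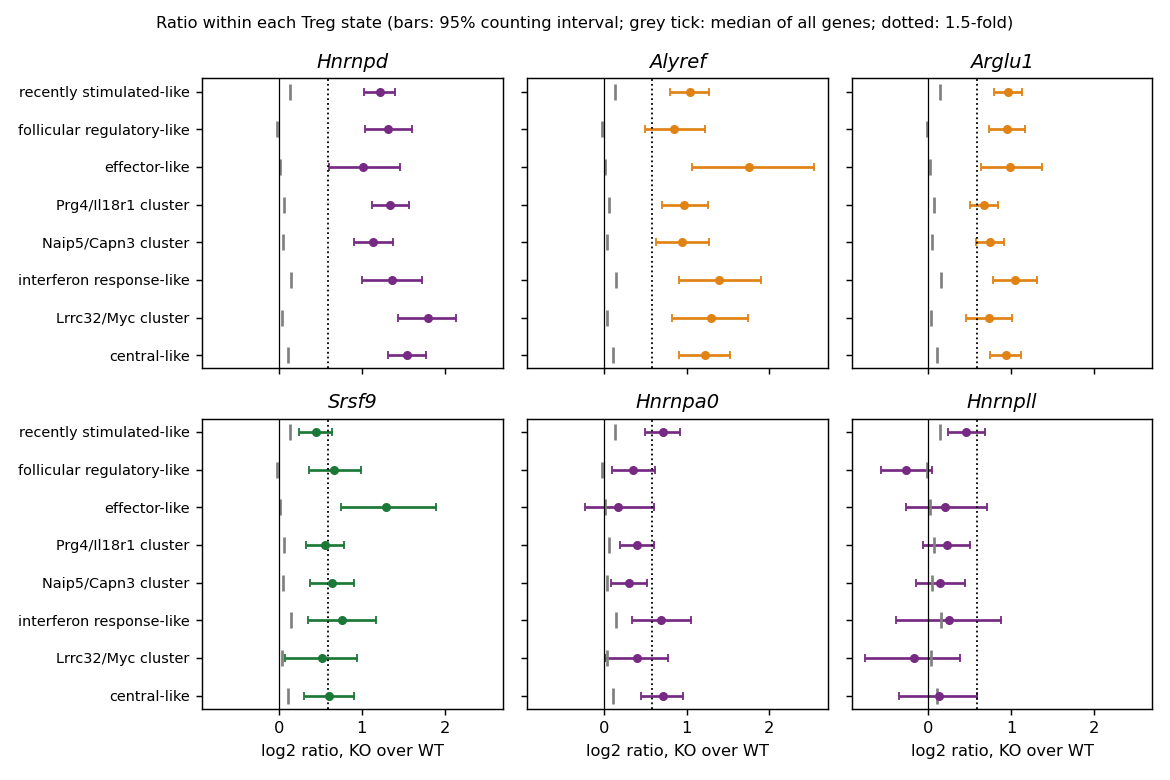
The log2 ratio of CPM, CD25KO over CD25WT (x axis), within each of 8 Treg states (y axis), 1 panel per gene, with bars for the 95% counting interval, a grey tick for the median of all genes in that state and a dotted line at 1.5-fold. Hnrnpd, Alyref, Arglu1 and Srsf9 lie above 0 in each state, and Hnrnpll lies near 0 in most.

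Alyref, Arglu1 and Hnrnpd were at least 1.5-fold higher in each of the 8 states, 3 of 32 members (9.38%), where 33 of all genes tested, or 0.366%, were. Adding Hnrnpa0, Hnrnpm and Srsf9, 6 members (18.8%) had a ratio above 0 in each state, where 6.51% of all genes did. Alyref and Arglu1, in both counts, were added to the members by name, with earlier results of these data known. For that reason these shares cannot be read as a trait of the Srsf and Hnrnp genes. Of the genes taken by symbol, only Hnrnpd was 1.5-fold higher in each state. For Hnrnpm the range was 0.12 to 0.31, with intervals above 0 in 5 states. A shift alike in every state cannot be told apart here from a difference between the 2 libraries, because each genotype is 1 library. No member was 1.5-fold lower in each state, and 16 genes were.

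State by state, the number of members at least 1.5-fold higher in CD25KO stayed between 3 and 5, and none was 1.5-fold lower. It was 5 in central-like cells, where 9.85% of all genes passed, 4 in effector-like cells (13.1%) and 4 in follicular regulatory-like cells (5.61%). It was 4 in recently stimulated-like cells (12.2%) and 5 in interferon response-like cells (17.1%). In the clusters that matched no marker list it was 4 in Naip5/Capn3 (6.09%), 3 in Prg4/Il18r1 (6.99%) and 3 in Lrrc32/Myc (12.4%). Each count includes Alyref and Arglu1, the genes added by name, and Hnrnpd. The medians of the members and of all genes were farthest apart in follicular regulatory-like cells, at -0.10 and -0.02.

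Hnrnpa3 and Hnrnpf were below 0 in each of the 8 states, although the sum over all cells gave Hnrnpa3 a ratio of 0.05. Hnrnpa3 ran from -0.26 in the Lrrc32/Myc cluster to -0.06 in central-like cells, with the interval below 0 in 6 states. Hnrnpf ran from -0.18 in recently stimulated-like cells to -0.02 in central-like cells, with the interval below 0 in 2. The widest spread of the ratio over states was that of Alyref and Srsf4, 0.90 each, the latter from -0.34 to 0.55 on as few as 28 UMIs. The narrowest was that of Hnrnpf, 0.16.

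Among the states, cycling-like cells stood highest: 19 of the 32 genes had their highest level there in both libraries, out of the 9 states including cycling. The same share over all genes is not given here. Against all other states together, 15 members were at least 1.5-fold higher in cycling-like cells of CD25WT, where 24.6% of all genes were, and 12 in CD25KO, where 15.2% were. None was 1.5-fold lower, where 18.4% of all genes were in CD25WT and 26.0% in CD25KO. The median of the members was 0.54 in CD25WT, beside 0.06 for all genes, and 0.38 in CD25KO, beside -0.17. Cycling-like cells had medians of 13469 and 14317 UMIs per cell, where the medians of the other T cell clusters ran from 3362 to 7527, and the part of that depth was not tested.

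Alyref, Hnrnpab and Hnrnpa3 led in cycling-like cells. Alyref reached 131 and 281 CPM there, against 30.6 and 71.2 CPM in central-like cells. Hnrnpab, a shuttling relative of Hnrnpd, reached 422 and 415 CPM, against 125 and 138 CPM. Hnrnpa3 reached 988 and 881 CPM, against 412 and 396 CPM. Both were thus over 2-fold higher in cycling-like than in central-like cells of each library. Between the libraries, the log2 ratio in cycling-like cells was -0.02 (-0.16 to 0.12) for Hnrnpab and -0.17 (-0.26 to -0.07) for Hnrnpa3. The lowest there relative to its mean over states was Srsf5, at 111 and 103 CPM, the lowest of its 9 states in both libraries, next to Hnrnph3 (37.7 and 46.7 CPM) and Srsf11 (191 and 202 CPM).

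Recently stimulated-like cells, marked by Egr and Nr4a genes, came second. Relative to each gene's mean over the 9 states, a mean that the cycling-like cells raise for most genes, 27 of 32 members were above it there in both libraries. How many of all genes were above theirs is not given here. Against central-like cells, 8 members were at least 1.5-fold higher in CD25WT, where 28.5% of all genes were, and 9 in CD25KO, where 32.2% were, so these counts were near the background share. The medians were 0.44 and 0.42, beside 0.26 and 0.30 for all genes. Leading there were Hnrnpll at 71.7 and 98.3 CPM, Hnrnpab at 248 and 234 CPM and Srsf6 at 130 and 131 CPM. Hnrnpul1 (77.5 and 87.4 CPM), Srsf4 (32.5 and 35.5 CPM) and Hnrnph2 (57.7 and 54.9 CPM) were lowest relative to their means.

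Hnrnpll had the widest range over the 8 states without cycling. It was lowest in interferon response-like cells, at 22.7 and 26.9 CPM, and in central-like cells, at 25.2 and 27.6 CPM. It stood at 57.8 and 66.5 CPM in effector-like cells and highest in recently stimulated-like cells. Highest over lowest was 3.16-fold in CD25WT and 3.65-fold in CD25KO, in the same order of these 4 states in both libraries. In both low states the interval of the ratio between libraries spanned 0.

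**Figure D3:**
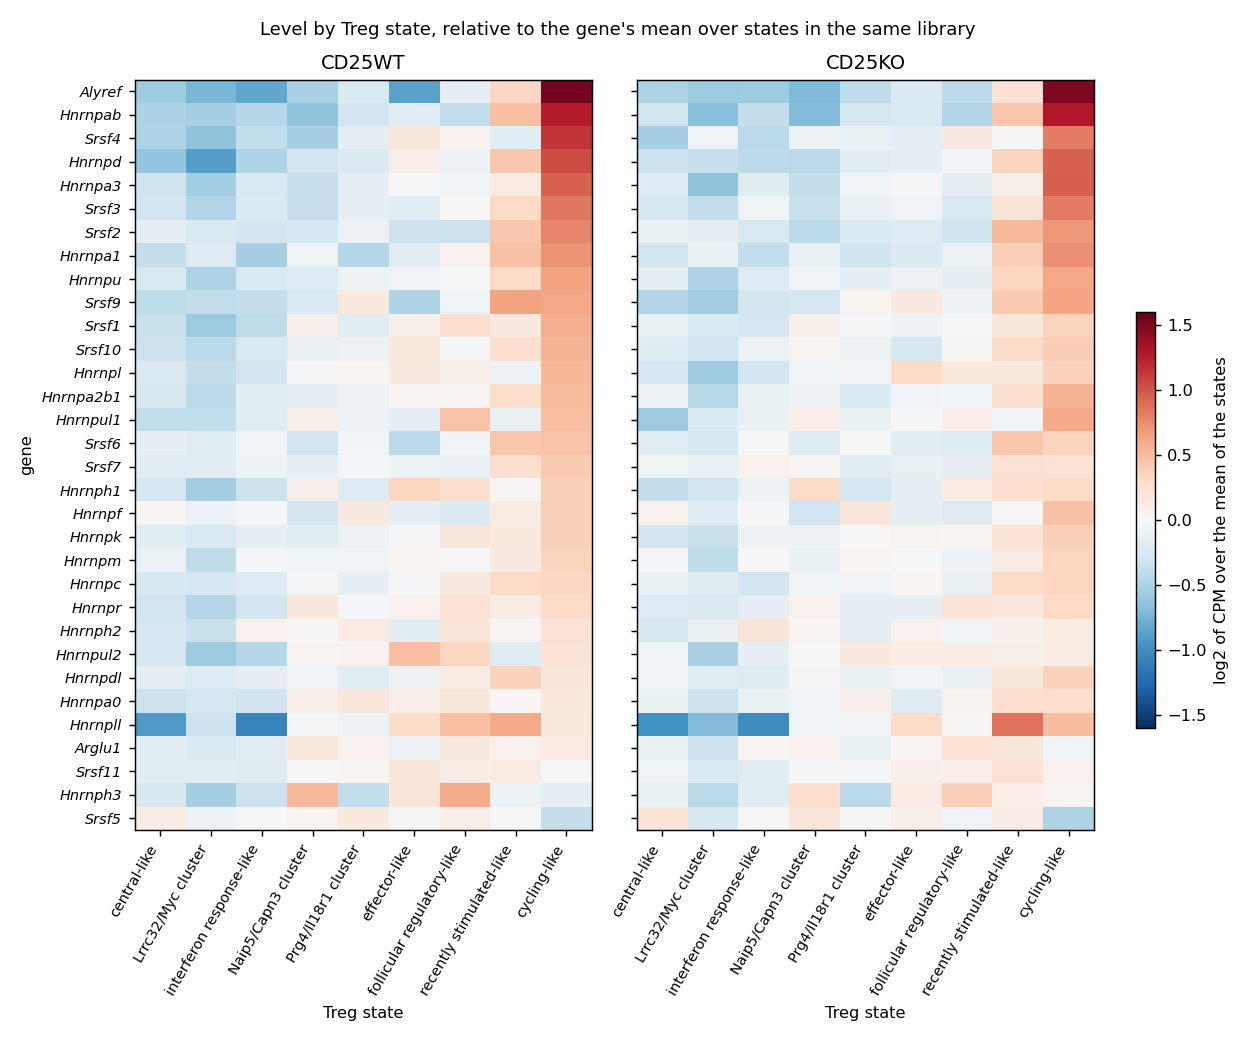
Each cell gives the log2 of a gene's CPM in a Treg state over its mean over the 9 states of the same library (colour scale), for the 32 genes (y axis) and 9 states (x axis), CD25WT left and CD25KO right. Cycling-like cells are red for 28 genes in both libraries, the Lrrc32/Myc cluster is blue for all 32, and Hnrnpll is darkest blue in central-like and interferon response-like cells.

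In the Lrrc32/Myc cluster all 32 genes were below their mean over states in both libraries, with Alyref (27.3 and 66.8 CPM), Hnrnpa3 (350 and 291 CPM) and Hnrnpab (123 and 108 CPM) farthest below. Srsf7 (305 and 336 CPM), Hnrnpf (613 and 549 CPM) and Hnrnpa1 (241 and 256 CPM) were nearest to their means. Central-like cells were below for 30 genes, the exceptions being Srsf5 (156 and 169 CPM) and Hnrnpf (667 and 659 CPM), followed by Hnrnpm (204 and 249 CPM). Hnrnpll, Alyref and Srsf4 (26.1 and 25.1 CPM) were farthest below. For neither state is the count over all genes given here, so these counts are not read as particular to the members. These 2 states also gave the largest shares to ribosomal protein genes, 46.1% and 45.0% in Lrrc32/Myc and 45.1% and 43.0% in central-like cells, which lowers every other gene's CPM.

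With ribosomal protein and mitochondrial UMIs taken out of the total, the 32 genes summed to 1.03% of UMIs in central-like cells of CD25WT and 1.09% in CD25KO. The share was 0.970% and 1.001% in the Lrrc32/Myc cluster, 0.89% and 0.90% in effector-like cells and 0.95% and 0.94% in follicular regulatory-like cells. It was 1.22% and 1.19% in recently stimulated-like and 1.40% and 1.37% in cycling-like cells. On this scale the central-like and Lrrc32/Myc cells were no longer low, and the cycling-like and recently stimulated-like cells stayed highest in both libraries.

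**Figure D4:**
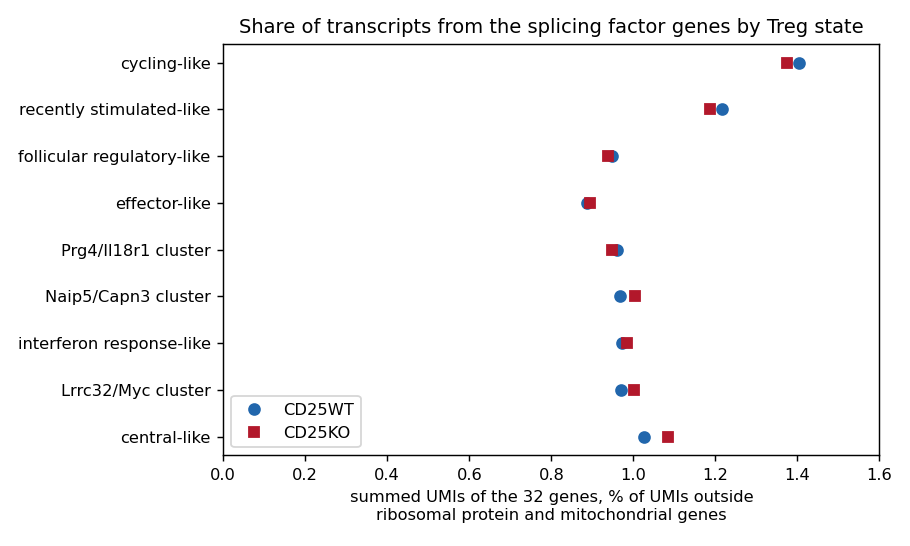
Summed UMIs of the 32 genes as a percent of UMIs outside ribosomal protein and mitochondrial genes (x axis) in 9 Treg states (y axis), circles for CD25WT and squares for CD25KO. The cycling-like (1.40 and 1.37) and recently stimulated-like (1.22 and 1.19) cells lie to the right, and the libraries lie close together in every state.

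In the other states the members farthest above and below their mean over the 9 states are given, which, since cycling-like cells raise that mean, need not be the states of their highest or lowest level. Follicular regulatory-like cells were farthest above for Hnrnph3 (62.6 and 58.9 CPM, its highest level in both libraries), Hnrnpr (167 and 181 CPM) and Arglu1 (115 and 222 CPM), and farthest below for Hnrnpab (135 and 124 CPM), Srsf2 (149 and 163 CPM) and Hnrnpf (563 and 544 CPM). Effector-like cells were above for Hnrnpll, Hnrnpl (130 and 135 CPM) and Hnrnph3 (47.4 and 49.5 CPM), and below for Alyref (25.2 and 85.0 CPM), Srsf2 (150 and 177 CPM) and Hnrnpab (157 and 145 CPM). Alyref there was the lowest of the 9 states in CD25WT but not in CD25KO.

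Interferon response-like cells were above for Hnrnph2 (59.6 and 59.9 CPM), while Srsf5 (143 and 146 CPM) and Hnrnpm (216 and 254 CPM) stood at their means. They were below for Hnrnpll, Alyref (25.5 and 67.3 CPM) and Hnrnpd (47.7 and 122 CPM). The Naip5/Capn3 cluster was above for Hnrnph3 (59.5 and 54.0 CPM), Hnrnpul1 (90.3 and 97.6 CPM) and Srsf1 (95.3 and 106 CPM), and below for Hnrnpab (113 and 105 CPM, its lowest level in both libraries), Alyref (31.9 and 61.4 CPM) and Hnrnpa3 (395 and 350 CPM). The Prg4/Il18r1 cluster was above for Hnrnpf (724 and 709 CPM), Hnrnpa0 (83.1 and 110 CPM) and Hnrnpul2 (92.4 and 100 CPM), and below for Hnrnph3 (31.6 and 33.6 CPM), Hnrnpa1 (202 and 221 CPM) and Hnrnpab (144 and 141 CPM). Hnrnph3, a member of the G-run binding group, was thus high in the follicular regulatory-like and Naip5/Capn3 cells and low in Prg4/Il18r1 cells of both libraries.

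Some of the 6 genes were also read in the B-like cluster, a comparison chosen after the values were seen. The B-like cluster held 67 cells in each library, with Cd79a at 604 and 558 CPM, but also Cd3e at 425 and 523 CPM (662 and 896 CPM in T cells) and the macrophage gene C1qa at 314 and 185 CPM. These barcodes thus held much T cell RNA, and its part in the ratios below was not tested. Alyref had 9 and 23 UMIs there (log2 ratio 1.40, 0.24 to 2.70), Arglu1 24 and 43 UMIs (0.89, 0.14 to 1.67) and Hnrnpd 36 and 56 UMIs (0.68, 0.06 to 1.33). Srsf9 had 25 and 23 UMIs (-0.07) and Hnrnpa0 34 and 32 UMIs (-0.04). Among the other members, Srsf5 (-0.81, -1.49 to -0.15) and Srsf7 (-0.58, -1.08 to -0.10) had intervals below 0. The median log2 ratio in this cluster was -0.17 for the members and -0.04 for all genes.

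Without barcodes that had a UMI of Cd3d, Cd3e, Cd3g, Trac or Cd4, 34 and 37 B-like cells were left. Hnrnpd then had 7 and 21 UMIs (log2 ratio 1.58, 0.29 to 3.06), Alyref 3 and 10 UMIs (1.73, -0.22 to 4.23) and Arglu1 11 and 14 UMIs (0.34, -0.90 to 1.63). Of these 3 genes, only Hnrnpd had an interval that excluded 0. Srsf9 had 11 and 8 UMIs (-0.46) and Hnrnpa0 10 and 10 UMIs (-0.003), both with intervals spanning 0. Other members also had intervals that excluded 0, in both directions. Hnrnpa1 was above 0 (0.69, 0.01 to 1.38), and Hnrnpa3 (-0.70, -1.39 to -0.04) and Hnrnpm (-0.96, -1.93 to -0.04) were below. The part of free T cell RNA in these few UMIs was not tested.

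The 6 higher genes also had G and C-rich transcript starts, a property examined after the values were seen. In the first 300 bases of the longest protein-coding transcript, Arglu1 had 78.0% GC, Hnrnpa0 76.7%, Srsf9 76.0%, Hnrnpll 74.0%, Alyref 72.0% and Hnrnpd 68.3%. Their median was 75.0%, beside 61.0% for the other 26 members and 61.3% for all 8679 genes with such a transcript (96.1% of those tested). Spearman's rho between this GC content and the log2 ratio was 0.45 over the 32 members, which share both libraries, and 0.02 over all genes. Over the whole transcript rho was 0.27, and over its last 300 bases, near the end that the 3′ method reads, 0.13.

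When all genes were ordered by this GC content and put in 10 equal groups, the top group of 867 genes (74.0% to 88.3% GC) had 21.7% at least 1.5-fold higher in CD25KO, against 10.3% to 14.2% in the other groups. With each cluster weighted by its CD25WT share in both libraries, the shares were 8.42% and 1.96% to 4.72%. Of 28 genes with such a transcript that were 1.5-fold higher in each state, 13 were in that top group, and of the 6 members 4 were. Hnrnpdl, with 75.7% GC and a log2 ratio of 0.13, was the 1 other member in it. Of 13 genes with such a transcript that were 1.5-fold lower in each state, 3 were in the top group. The median of those 13 was 66.0% GC, also above that of all genes. Whether GC content had a part in the members' ratios was not tested.

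**Figure D5:**
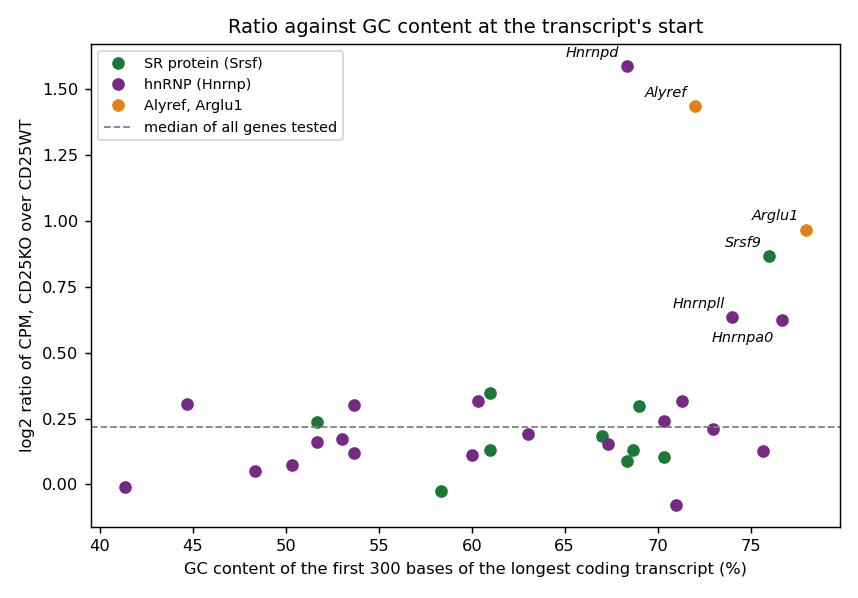
The log2 ratio of CPM, CD25KO over CD25WT (y axis), against the GC content in percent of the first 300 bases of the longest protein-coding transcript (x axis), 1 point per gene for the 32 genes, with a dashed line at the all-gene median of 0.22. The 6 labelled genes, all at least 1.5-fold higher, lie between 68.3% and 78.0% GC, where members with ratios near the median are also found.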

How the data were processed

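Per the labels' protocols, live sorted splenic Tregs went through the 10x Chromium 3′ kit, 1 library of 2 pooled spleens per group. The authors deposited unnormalized UMI counts per gene and barcode, from Cell Ranger 6.0.0, per the file headers, on the mm10 build per the submitters' processing notes. The counting annotation and whether strand or intronic reads were used are not given in the sources used here.

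A cell was kept at 500 or more genes detected and no more than 10% of UMIs from mitochondrial genes (510 and 578 barcodes, or 7.70% and 7.68%, failed). UMIs were summed per library and scaled to CPM. Sums have exact Poisson intervals and ratios exact conditional intervals at 95%, tested on simulated data, for counting error only. Scrublet (Scanpy 1.11.5) called 1 and 0 doublets, which was taken as a failure, so doublets remain in the values given.

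Both libraries were clustered together (2000 variable genes, 30 components, 15 neighbours, leidenalg 0.10.2 at resolution 1), without the members, Il2ra, T cell receptor segments, immunoglobulin, haemoglobin, mitochondrial, ribosomal protein, Y-linked genes and Xist. A cluster took a name when at least 2 of its 10 leading genes were markers of that class, more than of any other, with at least 3 detected. This rule was set after seeing the data.

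The members and gene lists were chosen with earlier results of these data known. Every member is named with its values. Of each list the 2 measured genes farthest from 0 are named, and per state the 3 members highest and 3 lowest against their mean over states. Alternatives were TMM (edgeR 4.0.16) and median-of-ratios factors, other totals, cell filters, gene minimums, cell subsets and clusterings. Gene positions and transcripts are from GENCODE mouse release M21.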

Additional observations from a re-analysis of the deposited data

Results flagged for a closer look

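For 5 of the 32 genes the counting interval of the CD25KO over CD25WT log2 ratio lay below 0 in 1 Treg state and above 0 in at least 1 other, and the gap between the lowest and highest state is given. The share of all genes that meet this rule is not given here, so the count is not read as particular to the members. The difference between states was not tested, since each state rests on 1 library per group.

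Hnrnph1 was lower in CD25KO effector-like cells (120 and 85.0 CPM, -0.50) and higher in interferon response-like cells (74.7 and 88.8 CPM, 0.25), 0.748 apart. For Hnrnph1 and Hnrnpul2 the interval above 0 was that of recently stimulated-like cells (ratios 0.23 and 0.30). Hnrnpul2 differed by 0.6754 between effector-like (-0.35) and interferon response-like cells (0.33). Srsf3 differed by 0.4197 between follicular regulatory-like (387 and 343 CPM, -0.18) and interferon response-like cells (329 and 390 CPM, 0.24). Hnrnpu differed by 0.3102 between follicular regulatory-like (-0.17) and Naip5/Capn3 cells (0.14). Hnrnpa2b1 differed by 0.3095 between Prg4/Il18r1 (-0.13) and central-like cells (0.18). The ratios were also unequal over all genes, with medians of 0.15 in interferon response-like and -0.02 in follicular regulatory-like cells.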

How the results depend on the processing

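The median log2 ratio of the 32 genes, 0.19, moved with the scaling and the state mix, as did that of all genes. It was -0.0362 with TMM factors (all genes -0.01) and -0.0345 with median-of-ratios factors (-0.01). It was -0.0109 when ribosomal protein and mitochondrial genes were left out of the total (0.02). With each cluster weighted by its CD25WT share in both libraries it was 0.0682 (0.07). Under the other settings tried it ran from 0.13 without the cycling-like cells to 0.25 in cells with a Foxp3 UMI. The number of genes at least 1.5-fold higher ran from 4 to 6 and the number lower was 0 throughout. Of the 6 genes, Hnrnpd, Alyref, Arglu1 and Srsf9 passed 1.5-fold under each setting, while Hnrnpa0 fell to 0.40 and Hnrnpll to 0.41 with TMM factors, and Hnrnpa0 was 0.46 in cells thinned to 2000 UMIs. With clusters weighted by their CD25WT shares, the median ran from 0.05 to 0.11 over other resolutions and numbers of components. Of the single-gene values under alternatives, 230 stayed within about their counting interval and 186 moved beyond it, and none of the 6 genes changed direction. No paired analysis was possible because each group is 1 library and nothing was tested. Effector-like cells of CD25WT (143 cells) limit the depth most, with 17 Alyref UMIs.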
